A study of Homo sapiens with 24 samples.

Results

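The response to EPZ6438 differed between C4-2B and LNCaP cells at 923 of 13789 genes (6.69%), with a larger effect in C4-2B at 675 of them and in LNCaP at 248. The quantity compared was the change with EPZ6438 against DMSO in C4-2B minus the same change in LNCaP, in log2 units. Its members were the genes with at least 1 probe above background (detection p under 0.05) on 3 or more of the 24 arrays of the study, 13789 of the 20043 genes with a named probe. A positive difference means that EPZ6438 left the gene relatively higher in C4-2B, a negative difference relatively lower. The starting levels in DMSO were then set beside these differences.

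LNCaP is an androgen-dependent human prostate cancer cell line, and C4-2B is a line derived from it through passage in castrated mice that grows with little androgen. EPZ6438 (tazemetostat) blocks the catalytic site of EZH2, the methyltransferase subunit of Polycomb repressive complex 2 (PRC2). PRC2 marks histone H3 for gene repression, so its inhibition is classically read by repressed genes that come on, while changes elsewhere may be downstream of these or unrelated to them. EZH2 has also been described as an activator in prostate cancer cells, which is the question the study's title addresses.

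The groups were C4-2B with EPZ6438, C4-2B with DMSO, LNCaP with EPZ6438 and LNCaP with DMSO, 3 Illumina bead arrays each, with total RNA taken after 3 days of EPZ6438 at 1 µM or of solvent. Both lines were kept in RPMI with serum. The labels give ATCC as the source of LNCaP and, for C4-2B, a metastatic lymph node site of origin. Cells of each line were also transfected with siControl, a control siRNA, or with siEZH2, which targets EZH2, for 3 days, again with 3 arrays per group. The siRNA arrays entered the estimate of spread, and the siControl arrays gave a measure of each line that shares no array with the EPZ6438 comparison. Replicates are numbered, but nothing says that they came from different dishes or days, so each p-value reflects array-to-array spread, part or all of which may be technical. All changes are log2 differences of normalised intensity ± standard error (SE), 3 arrays per group, with limma p-values adjusted over all genes by the Benjamini-Hochberg method. "Called" means an adjusted p under 0.05.

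Between 19304 and 21106 probes were above background on the 12 arrays, and C4-2B EPZ6438 replicate 1 and C4-2B DMSO replicate 3 were dimmest, with mean intensities of 186.4 and 195.6 against 231.1 to 279 on the other arrays. Markers of luminal prostate epithelium were present in both lines, with 24 or 25 of 25 measured markers above background on every array. Of the 12 measured fibroblast and mesenchymal markers, 6 to 8 were above background in C4-2B and 8 to 10 in LNCaP. EZH2 mRNA did not pass the test for a difference of effects (0.12 ± 0.22, adjusted p = 0.84). It had log2 levels of 7.53, 7.19 and 6.80 in C4-2B with EPZ6438 and 7.11, 7.28 and 7.14 with DMSO, and 6.98, 6.97 and 7.10 in LNCaP with EPZ6438 and 7.20, 7.25 and 6.95 with DMSO.

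LNCaP DMSO replicate 1 stood apart by its line-specific genes. The siControl arrays gave 28 genes at least 8-fold higher in C4-2B and dim in LNCaP (mean log2 level under 5). Their median log2 level was 5.33 on LNCaP DMSO replicate 1, against 4.75 and 4.62 on replicates 2 and 3, and replicate 1 was the highest of its group for 24 of the 28. The same arrays gave 22 genes at least 8-fold higher in LNCaP and dim in C4-2B (mean log2 level under 5). Their medians were 5.49 to 5.69 in C4-2B with EPZ6438 and 5.00 to 5.12 in C4-2B with DMSO. The medians of 4.34 to 4.42 in C4-2B siControl follow in part from that choice. Without LNCaP DMSO replicate 1, 765 genes were called (357 higher and 408 lower), of which 720 were among the 923. LNCaP EPZ6438 replicate 1 lay nearest to the DMSO arrays on the second principal component of the 12 arrays (3.9, against −10.5 and −14.5 for the other LNCaP EPZ6438 arrays and 7.6 to 11.0 for LNCaP DMSO). Without it, 1210 genes were called. Whether RNA of the other line was present on any array was not tested.

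The 923 genes were split almost evenly, with 447 higher (3.24%) and 476 lower (3.45%) in C4-2B relative to LNCaP. Among them, 350 of the higher and 360 of the lower differed by at least 1.5-fold. In C4-2B itself EPZ6438 changed 2100 genes (15.2%), 1124 up (8.15%) and 976 down (7.08%). In LNCaP it changed 924 genes (6.7%), 555 up (4.02%) and 369 down (2.68%), a count that was 1783 without EPZ6438 replicate 1, 293 without EPZ6438 replicate 3, 489 without DMSO replicate 1 and 399 without DMSO replicate 3. Counts over the gene lists below are to be read against the shares of all genes given here. Of the 476 genes with a lower difference, 323 (67.9%) fell in C4-2B and were not called in LNCaP, 94 (19.7%) rose in LNCaP and were not called in C4-2B, and 16 did both. Of the 447 with a higher difference, 267 (59.7%) rose in C4-2B alone, 81 (18.1%) fell in LNCaP alone, and 29 did both. The count rested on the scaling and on the estimate of spread: it was 35 with each array centred on its median in place of quantile normalisation and 506 from the 12 arrays alone. All 923 genes kept the sign of their difference under both settings. Both settings reuse the arrays on which the genes were called, so the kept signs are no separate support.

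**Figure D1:**
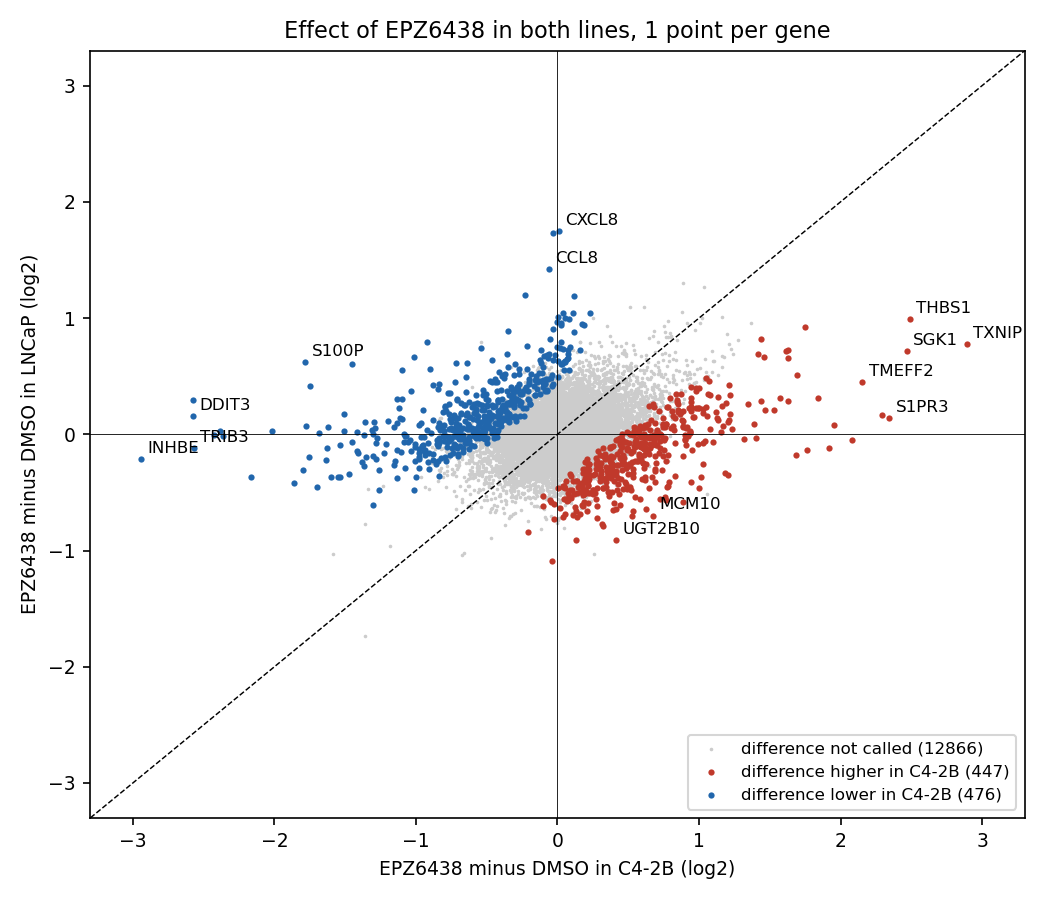
Effect of EPZ6438 in C4-2B (x axis) against that in LNCaP (y axis), as log2 difference from DMSO, 1 point per gene. The dashed line marks equal effects; red points are the 447 genes with a higher and blue points the 476 genes with a lower difference, which lie mostly along the horizontal axis, where the effect in LNCaP is small.

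The largest group of lower differences was the amino acid and endoplasmic reticulum stress programme. When amino acids run short or unfolded protein accumulates, kinases phosphorylate the initiation factor eIF2, translation slows, and the transcription factor ATF4 switches on genes for amino acid synthesis, transport and tRNA charging, together with DDIT3 (CHOP) and TRIB3. Of 43 measured genes of this list, 23 had a lower and 0 a higher difference, with a median difference of −0.87 against 0.00 over all genes. In C4-2B 28 of the 43 fell with EPZ6438 and 1 rose, while in LNCaP 2 fell and 1 rose. The list's median log2 level was 9.28, 9.20 and 9.42 on the C4-2B EPZ6438 arrays and 10.31, 10.32 and 9.97 on the C4-2B DMSO arrays. In LNCaP it was 8.60, 8.74 and 9.11 with EPZ6438 and 8.94, 8.82 and 8.91 with DMSO, so that the C4-2B DMSO arrays lay above all others.

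DDIT3 (Entrez 1649; GRCh38.p14, chromosome 12, 57516588 to 57520517), which promotes cell death under prolonged stress, had log2 levels of 7.39, 7.43 and 7.93 in C4-2B with EPZ6438 and 10.31, 10.32 and 9.86 with DMSO. In LNCaP the levels were 7.63, 7.37 and 7.91 with EPZ6438 and 7.54, 7.50 and 7.39 with DMSO. Only the C4-2B DMSO arrays stood apart, and the other 3 groups overlapped. The fall in C4-2B was −2.58 ± 0.14, the change in LNCaP 0.16 ± 0.14 (not called), and the difference −2.73 ± 0.20 (adjusted p = 2.51e-09). TRIB3 (chromosome 20, 380760 to 397559), a pseudokinase that dampens AKT and ATF4 signalling, showed the same order, with 8.72, 8.86 and 9.14 in C4-2B with EPZ6438 and 11.50, 11.56 and 11.36 with DMSO, and 8.41 to 9.35 over the 6 LNCaP arrays. Its difference was −2.45 ± 0.22.

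CTH, which makes cysteine from cystathionine, had 6.66, 7.03 and 7.25 in C4-2B with EPZ6438 against 9.02, 9.05 and 8.92 with DMSO, and 6.53, 6.36 and 6.40 in LNCaP with EPZ6438 against 6.55, 6.56 and 6.11 with DMSO. The EPZ6438-treated C4-2B arrays stayed above every LNCaP array, and the difference was −2.04 ± 0.20. SESN2, a stress sensor that restrains mTORC1, differed by −1.85 ± 0.23. Outside the list, PSPH (serine synthesis) differed by −1.79 ± 0.22 and SLC6A9 (a glycine transporter) by −2.35 ± 0.21, both with falls in C4-2B alone. Secreted hormones known to follow ATF4 moved alike. FGF21 averaged 4.66 ± 0.11 (SD, n = 3) in C4-2B with EPZ6438 and 7.09 ± 0.14 with DMSO, was not above background on any LNCaP array, and differed by −2.42 ± 0.13. INHBE, which encodes an activin subunit, averaged 5.08 ± 0.15 and 8.02 ± 0.14 in those C4-2B groups and differed by −2.73 ± 0.16.

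The promoters of called list members are shown for a pair of genes whose windows hold TGATGNAA (N any base), a core of the element that C/EBP and ATF4 dimers bind. The 250 bases before the RefSeq start were searched on both strands, and overlapping matches were counted apart. A match was found at 4 of 20 called members with an entry (20.0%) and 4 of 38 measured members (10.5%), against 1.54% of the 10879 tested genes and 3.19% of all 27305 promoter windows. The list was drawn up as genes of this programme. A larger share than over all genes can come from that choice and says nothing about EPZ6438. CHAC1, which degrades glutathione, differed by −1.70 ± 0.22, and ASNS, asparagine synthetase, by −1.13 ± 0.15. Both were chosen for this display after their values were seen. Capitals mark the match, which in CHAC1 lies on the opposite strand and is printed as its complement read 5′ to 3′, and sequences run 5′ to 3′ and come from RefSeq (GRCh38.p14), CHAC1 from the plus strand of chr15:40953221-40953470 and ASNS from the minus strand of chr7:97872409-97872658.
CHAC1: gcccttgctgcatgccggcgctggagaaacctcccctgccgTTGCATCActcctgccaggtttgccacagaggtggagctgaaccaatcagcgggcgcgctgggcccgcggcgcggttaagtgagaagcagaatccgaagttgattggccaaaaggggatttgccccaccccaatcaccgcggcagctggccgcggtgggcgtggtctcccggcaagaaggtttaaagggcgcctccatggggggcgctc
ASNS: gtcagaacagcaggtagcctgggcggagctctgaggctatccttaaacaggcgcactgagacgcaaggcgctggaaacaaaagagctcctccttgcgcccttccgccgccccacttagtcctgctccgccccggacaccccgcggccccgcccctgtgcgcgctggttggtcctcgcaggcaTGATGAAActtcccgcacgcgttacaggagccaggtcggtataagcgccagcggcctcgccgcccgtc

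**Figure D2:**
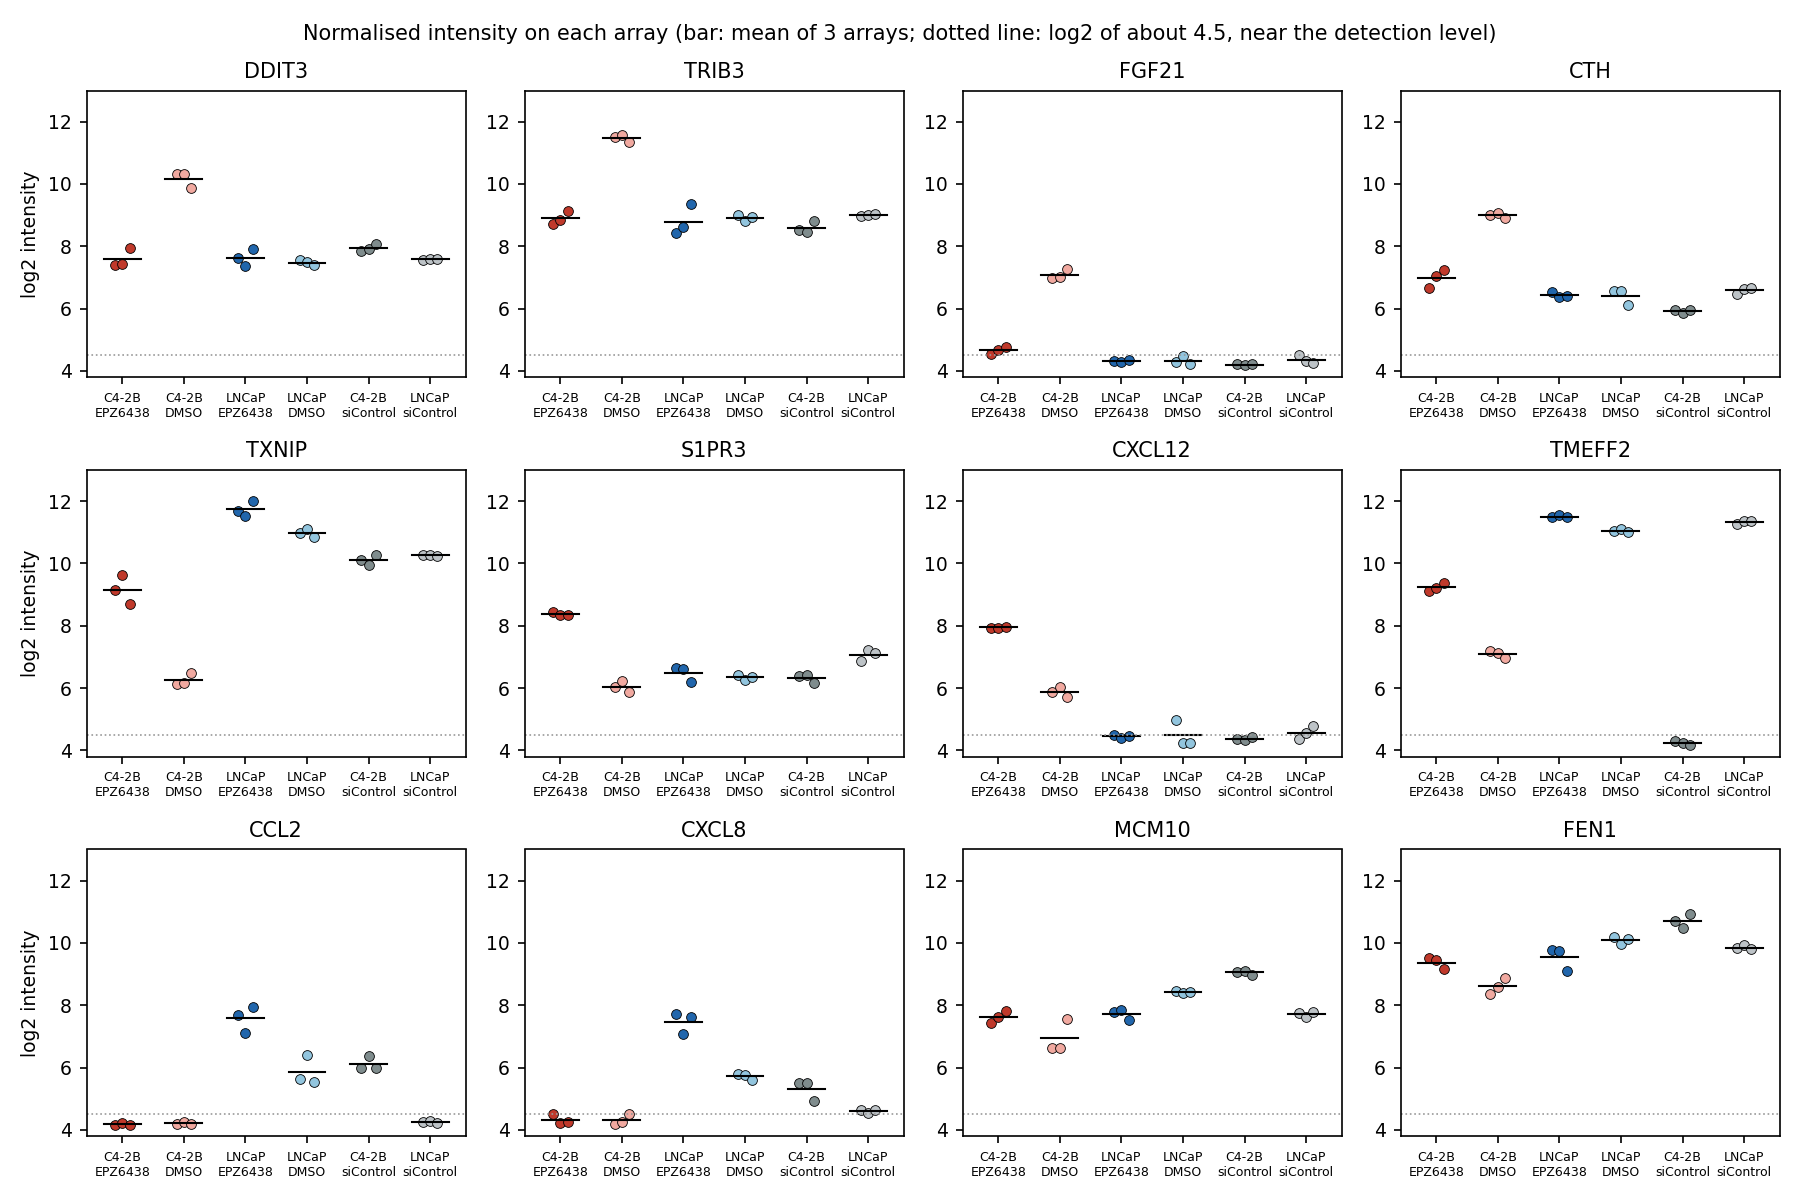
Normalised log2 intensity of 12 genes on each array of C4-2B and LNCaP with EPZ6438, DMSO and siControl; points are arrays, bars the means of 3. In the top row the C4-2B DMSO arrays lie above every other array, in the middle row the C4-2B EPZ6438 arrays lie above the C4-2B DMSO arrays, and CCL2 and CXCL8 lie at background in C4-2B with EPZ6438 and DMSO.

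The higher stress level of C4-2B was measured in DMSO cultures and not in siControl cultures. In DMSO the list's median gene was 1.26 higher in C4-2B than in LNCaP, with 32 of the 43 called higher and 5 lower, where 39.9% of all genes were called, 19.9% higher and 20% lower. In siControl cultures the median was −0.21, with 6 called higher and 17 lower (46.9% of all genes were called). Under EPZ6438 the median was 0.11, with 18 called higher and 5 lower in C4-2B, where 18.6% of all genes were called in each direction. DDIT3 had 7.84, 7.90 and 8.08 in C4-2B siControl, below all 3 C4-2B DMSO arrays and overlapping the C4-2B EPZ6438 arrays. TRIB3 had 8.52, 8.46 and 8.82 there. Culture medium, density and time in culture are not given per array, and their part in the high DMSO levels was not tested. The count of 23 fell to 6 with median centring and was 16 to 26 in fits that leave arrays out.

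Genes outside the stress list also gave strongly lower differences. BEST1, a chloride channel, averaged 4.82 ± 0.28 in C4-2B with EPZ6438, 7.40 ± 0.27 in C4-2B with DMSO, 5.00 ± 0.30 in LNCaP with EPZ6438 and 4.71 ± 0.24 in LNCaP with DMSO, and gave the lowest difference of all genes (−2.87 ± 0.22, adjusted p = 6.57e-09). BCL11B, a zinc finger repressor best known from T cells, differed by −2.41 ± 0.24, and its LNCaP levels were at background on 5 of 6 arrays. ESRP1, an epithelial splicing factor, averaged 5.67 ± 0.07 and 7.18 ± 0.05 in C4-2B with EPZ6438 and DMSO and 5.63 ± 0.06 and 5.60 ± 0.07 in LNCaP, a difference of −1.54 ± 0.16. S100P, a calcium-binding protein of prostate and other carcinomas, had 9.53, 9.42 and 9.44 in C4-2B with EPZ6438 and 11.46, 11.46 and 10.81 with DMSO, and 10.31, 9.74 and 9.87 in LNCaP with EPZ6438 and 9.22, 9.56 and 9.28 with DMSO. It fell in C4-2B by 1.78 and rose in LNCaP by 0.62 (difference −2.40 ± 0.27). SERPINA3, an acute phase protease inhibitor, differed by −2.17 ± 0.24, and CAPN5, a calpain protease, by −2.05 ± 0.22. Like S100P, CAPN5 fell in C4-2B and rose in LNCaP.

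The highest differences came from genes that EPZ6438 raised in C4-2B. S1PR3 (chromosome 9, 88990863 to 89005155), a receptor for sphingosine 1-phosphate, had 8.43, 8.35 and 8.36 in C4-2B with EPZ6438 and 6.02, 6.21 and 5.87 with DMSO. In LNCaP it had 6.65, 6.61 and 6.18 with EPZ6438 and 6.41, 6.26 and 6.35 with DMSO. The lines started at similar levels, only the C4-2B EPZ6438 arrays stood apart, and the difference was 2.20 ± 0.17 (adjusted p = 6.57e-09). IGFBP5, which binds insulin-like growth factors, averaged 7.00 ± 0.05 in C4-2B with EPZ6438, 4.71 ± 0.19 in C4-2B with DMSO, 4.68 ± 0.17 in LNCaP with EPZ6438 and 4.52 ± 0.39 in LNCaP with DMSO (difference 2.13 ± 0.19).

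CXCL12, the ligand of CXCR4 and a gene reported as repressed by EZH2, had 7.94, 7.94 and 7.96 in C4-2B with EPZ6438 and 5.87, 6.03 and 5.70 with DMSO. In LNCaP it was below background on all 3 EPZ6438 arrays and on 2 of 3 DMSO arrays, and the difference was 2.12 ± 0.21. KLK12, a kallikrein protease, and LPL, lipoprotein lipase, rose by 1.76 ± 0.10 and 1.69 ± 0.13 in C4-2B and were above background on no LNCaP EPZ6438 array. TRIB2, a pseudokinase, rose by 1.92 ± 0.16 in C4-2B and was likewise below background on every LNCaP EPZ6438 array. KLK11 was above background on all C4-2B EPZ6438 arrays and on no C4-2B DMSO array, at least 1.99-fold higher (adjusted p of the difference 6.57e-09).

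TXNIP (chromosome 1, 145992435 to 145996579), a thioredoxin inhibitor that falls when glucose is scarce, had 9.16, 9.63 and 8.69 in C4-2B with EPZ6438 and 6.14, 6.17 and 6.49 with DMSO, and 11.68, 11.52 and 12.02 in LNCaP with EPZ6438 and 10.97, 11.10 and 10.84 with DMSO. It rose in both lines, by 2.89 ± 0.16 and 0.77 ± 0.16, and the difference was 2.12 ± 0.23. The C4-2B DMSO level was the low one, since C4-2B siControl arrays had 10.12, 9.95 and 10.26. SGK1, a serum and glucocorticoid-inducible kinase, rose by 2.47 ± 0.13 in C4-2B and 0.72 ± 0.13 in LNCaP, a difference of 1.75 ± 0.19. THBS1, a matrix glycoprotein, rose by 2.49 ± 0.16 and 0.99 ± 0.16 (difference 1.49 ± 0.23).

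Some genes that rose in C4-2B were higher in LNCaP in DMSO. TMEFF2, a prostate membrane protein, had 9.13, 9.23 and 9.37 in C4-2B with EPZ6438 and 7.19, 7.12 and 6.96 with DMSO, and 11.48, 11.55 and 11.49 in LNCaP with EPZ6438 and 11.04, 11.10 and 11.02 with DMSO. Its difference was 1.70 ± 0.12, and in siControl cultures it was not above background in C4-2B and at least 111-fold lower than in LNCaP. PCDHB2, a clustered protocadherin, was at least 3.57-fold higher in C4-2B with EPZ6438 than with DMSO, where it was below background, and averaged 8.04 ± 0.09 and 7.95 ± 0.10 in LNCaP with EPZ6438 and DMSO. NRP1, a semaphorin and VEGF co-receptor, differed by 1.52 ± 0.17 and averaged 7.47 ± 0.19 and 5.63 ± 0.22 in C4-2B, against 9.02 ± 0.19 and 8.71 ± 0.04 in LNCaP. TMEFF2 and PCDHB2 are themselves among the 22 genes that mark LNCaP in siControl cultures, and NRP1 is not. As given above, the median of these 22 genes was somewhat higher in C4-2B with EPZ6438 than with DMSO. What this shift has to do with the values here was not tested. RGS2, a regulator of G protein signalling, was instead higher in C4-2B than in LNCaP in DMSO, at 8.86 ± 0.14 and 7.68 ± 0.10 in C4-2B and near background in LNCaP (difference 1.51 ± 0.31).

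Part of the DNA replication genes rose in C4-2B and part fell in LNCaP. These genes encode the MCM helicase, its loaders, polymerases and clamp, and are transcribed by E2F factors as cells enter S phase. Of 45 measured members, 21 had a higher and 0 a lower difference (median 0.49). In C4-2B 11 rose and 0 fell with EPZ6438, and in LNCaP 0 rose and 21 fell. The list's median log2 level was 7.63, 7.53 and 7.57 in C4-2B with EPZ6438 and 7.04, 7.03 and 7.57 with DMSO, and 7.64, 7.64 and 7.54 in LNCaP with EPZ6438 and 8.07, 8.08 and 8.16 with DMSO. Replicate 3 of C4-2B DMSO, the dim array, lay among the EPZ6438 arrays; without it 24 members were called.

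MCM10, a replication initiation factor, had 7.42, 7.61 and 7.81 in C4-2B with EPZ6438 and 6.64, 6.63 and 7.56 with DMSO, and 7.80, 7.83 and 7.54 in LNCaP with EPZ6438 and 8.46, 8.40 and 8.41 with DMSO. It rose in C4-2B by 0.67 ± 0.16 and fell in LNCaP by 0.70, a difference of 1.37 ± 0.23. MCM4, a helicase subunit, differed by 1.47 ± 0.22, FEN1, the flap endonuclease, by 1.30 ± 0.24, and UHRF1, which couples replication to DNA methylation, by 1.28 ± 0.22. In DMSO the list was lower in C4-2B (median −0.63, 2 called higher and 31 lower), while in siControl cultures it was higher there (median 0.76, 36 called higher and 0 lower). Under EPZ6438 the median was −0.12, with 4 called higher and 10 lower in C4-2B, where 18.6% of all genes were called in each direction. The 21 calls became 0 with median centring, 14 with the 12 arrays alone, and 7 without replicate 1 or without replicate 2 of every group.

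Another 2 sequences were searched in the same windows. TCACCCCAC, a sterol regulatory element, was present at 0 of 9 called and 1 of 24 measured cholesterol list members (4.17%), against 0.285% of tested genes and 0.348% of all windows. The other was TTTNGCGC, an E2F-type sequence. It was present at 5 of 19 called replication members (26.3%) and 8 of 39 measured members (20.5%), against 2.45% of tested genes and 1.54% of all windows. As for the stress list, the choice of list members can itself raise such shares, which were not tested. MCM6, a helicase subunit, and POLE2, a polymerase epsilon subunit, are shown with their matches in capitals. They differed by 0.76 ± 0.13 and 0.87 ± 0.22 and were chosen after their values were seen. MCM6 is read from the minus strand of chr2:135876444-135876693, where 4 matches overlap in pairs, and POLE2 from the minus strand of chr14:49688215-49688464 (RefSeq, GRCh38.p14).
MCM6: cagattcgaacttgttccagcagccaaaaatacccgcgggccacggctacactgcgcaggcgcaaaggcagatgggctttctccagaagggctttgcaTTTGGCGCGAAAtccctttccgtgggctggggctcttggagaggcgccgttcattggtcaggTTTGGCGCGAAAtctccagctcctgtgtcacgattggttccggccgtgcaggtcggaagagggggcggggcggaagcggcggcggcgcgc
POLE2: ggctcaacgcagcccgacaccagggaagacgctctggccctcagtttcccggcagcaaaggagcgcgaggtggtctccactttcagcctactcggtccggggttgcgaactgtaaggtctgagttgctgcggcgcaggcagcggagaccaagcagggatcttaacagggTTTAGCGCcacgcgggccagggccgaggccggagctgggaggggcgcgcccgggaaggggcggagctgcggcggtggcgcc

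Of 45 measured mitosis genes, 27 fell in C4-2B and 12 in LNCaP with none called up, and 5 had a lower difference. NEK2, a centrosome kinase, differed by −0.59 ± 0.15, the centromere proteins CENPE and CENPA by −0.58 ± 0.18 and −0.54 ± 0.15, and the phosphatase CDC25C by −0.52 ± 0.15. None of these 4 calls held with median centring or with the 12 arrays alone. Bulk RNA cannot tell fewer cells in a cell cycle phase apart from less RNA per cell.

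**Figure D3:**
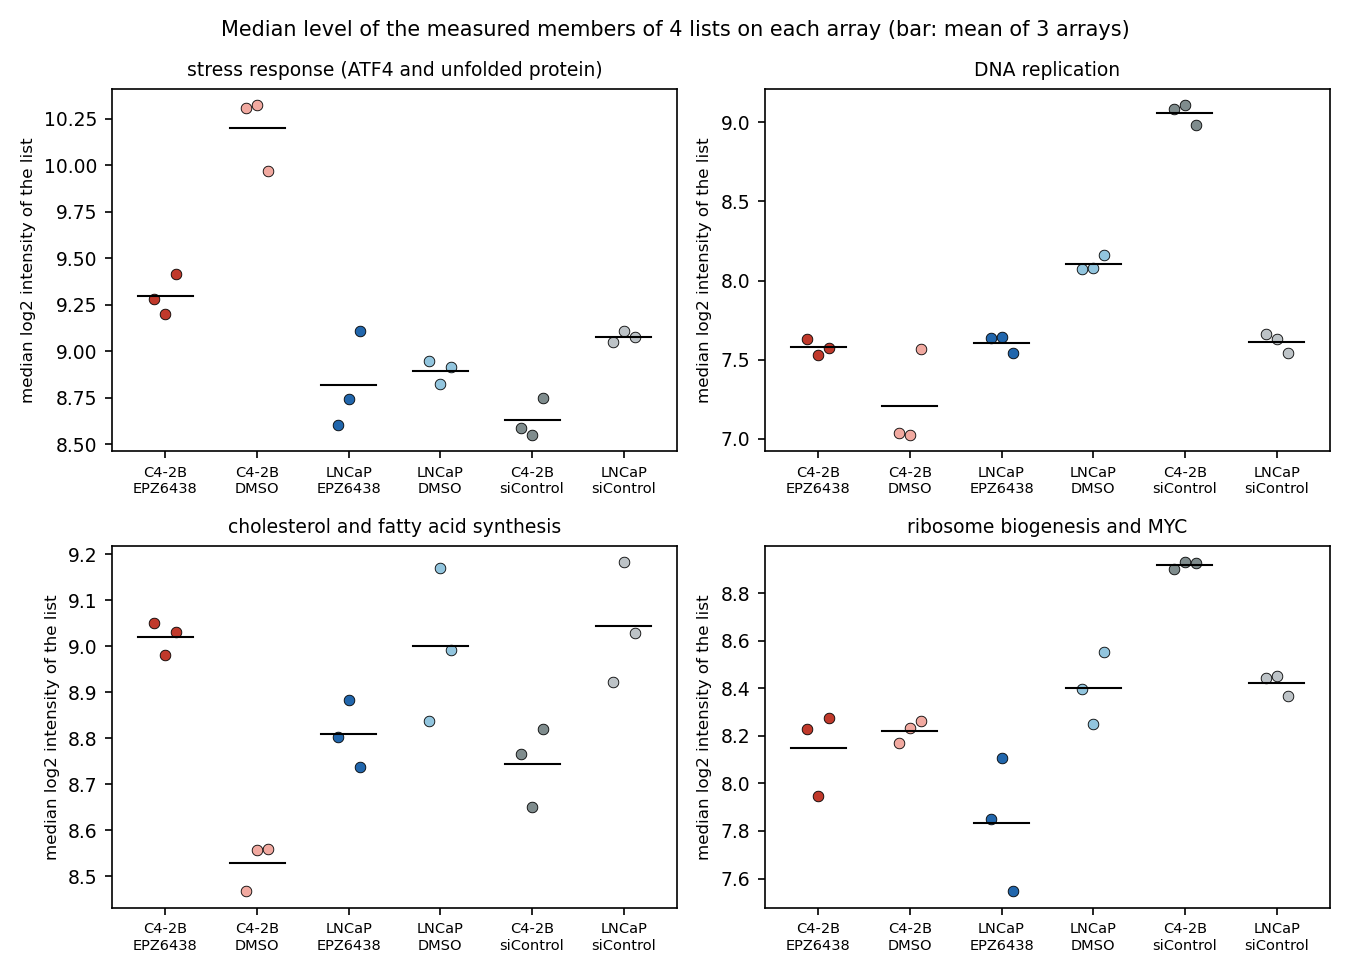
Median log2 intensity of the measured members of 4 gene lists on each array, with the mean of 3 arrays as a bar. C4-2B DMSO arrays are highest for the stress list, and lowest for the replication list apart from replicate 3.

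Of 26 measured sterol and fatty acid synthesis genes, 12 rose in C4-2B and 0 fell. When membrane cholesterol is low, SREBP factors are released and switch on this pathway, including their own brake INSIG1. Of the 26, 10 had a higher and 0 a lower difference (median 0.53, to be read against 0.00 over all genes), and 2 fell in LNCaP. INSIG1 (chromosome 7, 155297878 to 155310235) had 12.01, 12.06 and 11.94 in C4-2B with EPZ6438 and 10.69, 10.85 and 11.37 with DMSO, and 10.04, 10.14 and 9.62 in LNCaP with EPZ6438 and 10.35, 10.22 and 9.99 with DMSO. The C4-2B EPZ6438 arrays lay above all the others, and the difference was 1.29 ± 0.20 (adjusted p = 0.000207).

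MSMO1, a sterol oxidase, rose in C4-2B by 0.79 ± 0.11 and fell in LNCaP by 0.41, a difference of 1.20 ± 0.15 that was 0.46 and not called when all probes of the gene were averaged. ELOVL6, a fatty acid elongase, differed by 1.10 ± 0.17, and IDI1, isopentenyl diphosphate isomerase, by 0.84 ± 0.20. In DMSO 5 members were called higher and 7 lower in C4-2B (median −0.07, range −2.61 to 0.89). Under EPZ6438 15 members were called higher and 3 lower in C4-2B (median 0.31), where 18.6% of all genes were called in each direction. With median centring 1 of the 10 calls was made. Hypoxia and glycolysis genes gave 6 higher and 1 lower differences among 31, with PFKFB4 and PFKFB3, which set the level of a glycolytic activator, at 1.32 ± 0.31 and 1.07 ± 0.29. The lipid droplet protein HILPDA was at 1.05 ± 0.22. The lower one was DDIT4, an mTORC1 inhibitor that is also in the ATF4 list, at −1.35 ± 0.36. PFKFB3 was called under 20 and DDIT4 under 21 of 29 alternatives, neither in the authors' processed values. None of the named hypoxia and glycolysis genes was called with median centring.

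Several chemokine genes rose in LNCaP, where 8 of 19 list members were called. Chemokine genes answer to NF-kB and to interferon and draw leukocytes to a tissue. Of 19 measured chemokine and NF-kB target genes, 6 had a lower and 1, CXCL12, a higher difference. In C4-2B only CXCL12 was called with EPZ6438, while in LNCaP 8 rose and 0 fell. The 6 lower calls became 1 when only probes detected on all 12 arrays were tested, which leaves out genes at background in C4-2B, and 4 with median centring, with the 12 arrays alone or without replicate 3 of every group. CCL2 (chromosome 17, 34255285 to 34257203), a monocyte attractant, was not above background on any C4-2B array with EPZ6438 or DMSO, and had 7.70, 7.11 and 7.94 in LNCaP with EPZ6438 and 5.62, 6.40 and 5.54 with DMSO. The LNCaP groups did not overlap. Its rise in LNCaP was 1.73 ± 0.19 and its difference −1.76 ± 0.26, which rests on LNCaP alone. CXCL8, a neutrophil attractant, was also below background in both C4-2B groups, had 7.71, 7.07 and 7.64 in LNCaP with EPZ6438 and 5.81, 5.76 and 5.61 with DMSO, and differed by −1.74 ± 0.25. CCL8 lay near background in C4-2B, above it on 2 of 3 arrays of each group, and rose in LNCaP by 1.42 ± 0.13 (difference −1.49 ± 0.19).

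The order of the lines was reversed in siControl cultures for CCL2 and CCL8. In siControl cultures CCL2 had 5.99, 6.38 and 5.97 in C4-2B and was below background in LNCaP, the reverse of DMSO. CCL8 had 7.91, 8.31 and 7.61 in C4-2B siControl against 5.34, 5.35 and 5.15 in LNCaP siControl. A gene at background has no room to fall, so a fall in C4-2B could not be measured for these genes.

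Interferon-stimulated genes gave 7 lower and 1 higher differences among 45, where 3.45% of all genes were called lower and 3.24% higher. In C4-2B 6 rose and 2 fell, where 8.15% of all genes rose and 7.08% fell. In LNCaP 12 rose and 0 fell, where 4.02% of all genes rose and 2.68% fell. The transcription factor IRF1 was below background in C4-2B with EPZ6438 and had 4.67, 4.66 and 4.97 there with DMSO, and had 6.59, 6.68 and 7.50 in LNCaP with EPZ6438 and 5.75, 6.37 and 5.98 with DMSO. Its difference was −1.24 ± 0.28. The exonuclease ISG20 differed by −0.93 ± 0.21, the chemokine CXCL10 by −0.95 ± 0.20 and the oligoadenylate synthetase-like OASL by −0.84 ± 0.19. No list member was called lower with median centring or without replicate 1 of every group, and 4 were without LNCaP DMSO replicate 3. ACTA2 (smooth muscle actin) and TWIST1 (a mesenchymal transcription factor) also rose in LNCaP alone, by 1.04 ± 0.15 and 0.73 ± 0.10. They differed by −0.93 ± 0.21 and −0.69 ± 0.14, and TWIST1 was below background in C4-2B.

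**Figure D4:**
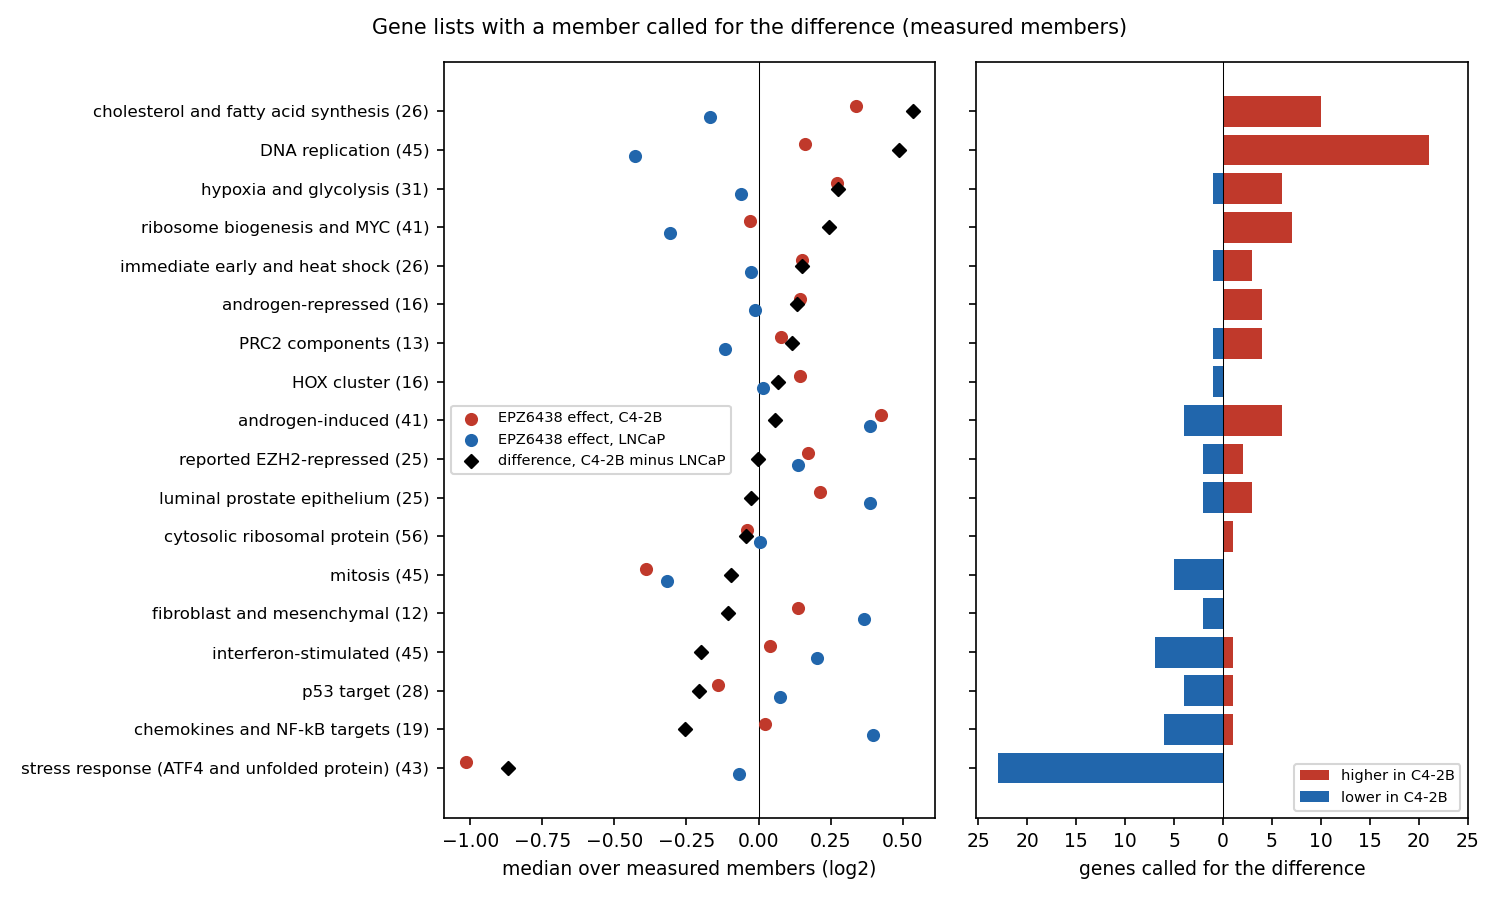
Left, the median EPZ6438 effect over the measured members of each list in C4-2B (red) and LNCaP (blue) and of their difference (black), in log2 units, for lists with a called member; right, members called for the difference. The stress list stands at −0.87 with 23 lower calls and the replication list at 0.49 with 21 higher calls.

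Of 41 measured ribosome biogenesis genes, 7 had a higher difference and 0 a lower; 2 fell in C4-2B, against 13 in LNCaP. NOP56, a nucleolar scaffold for rRNA methylation, had 10.23, 10.12 and 10.20 in C4-2B with EPZ6438 and 10.07, 9.86 and 10.21 with DMSO, and 10.10, 9.76 and 9.53 in LNCaP with EPZ6438 and 10.76, 10.53 and 10.83 with DMSO. The C4-2B groups overlapped, the LNCaP groups did not, and the difference was 1.05 ± 0.17. GRWD1, a ribosome assembly factor, differed by 0.77 ± 0.16, URB2 by 0.79 ± 0.20 and POLR1B, a subunit of RNA polymerase I, by 0.76 ± 0.20. POLR1B was called under 17 of 29 alternatives, not with the 12 arrays alone or with all probes of the gene averaged. The 7 calls became 2 without LNCaP DMSO replicate 3, 3 without LNCaP EPZ6438 replicate 3 and 11 without LNCaP EPZ6438 replicate 1. They became 4 without LNCaP DMSO replicate 1, C4-2B DMSO replicate 1 or 2, or C4-2B EPZ6438 replicate 1, each left out alone, and 0 with median centring.

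Of 13 measured PRC2 genes, 4 had a higher and 1 a lower difference, where 6.69% of all genes were called in either direction. Among them were EED, the core subunit that reads the mark, at 0.62 ± 0.15, the accessory subunits EPOP and MTF2 at 0.76 ± 0.19 and 0.63 ± 0.18, and AEBP2 at −0.59 ± 0.14. MTF2 was called under 14 of 29 alternatives and lost its call when any of the 3 LNCaP DMSO arrays was left out, and none of the 4 named was called with median centring. Of 25 genes reported as EZH2-repressed, 2 had a higher and 2 a lower difference, with 7 up and 3 down in C4-2B and 8 up and 0 down in LNCaP. Besides CXCL12 they were CCND2, a cyclin, at 0.51 ± 0.14 (called under 11 of 28 alternatives and not with the 12 arrays alone), TNFRSF10B, a death receptor, at −0.61 ± 0.15, and FBXO32, a ubiquitin ligase subunit. FBXO32 had 5.54, 5.67 and 5.76 in C4-2B with EPZ6438 and 6.30, 6.35 and 6.24 with DMSO, and 6.87, 6.75 and 7.29 in LNCaP with EPZ6438 and 6.22, 6.61 and 6.25 with DMSO. It fell in C4-2B by 0.64 and rose in LNCaP by 0.61, from DMSO levels that overlapped, and its difference was −1.25 ± 0.17.

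Of 41 measured androgen-induced genes, 21 rose and 2 fell in C4-2B, 16 rose and 0 fell in LNCaP, and 6 had a higher and 4 a lower difference. TRPM8, a cold-sensing channel, rose by 1.61 ± 0.12 in C4-2B and 0.72 ± 0.12 in LNCaP (difference 0.90 ± 0.17). TRPM8 is among the genes that mark LNCaP in siControl cultures. The transcription factor MAF rose by 1.46 ± 0.11 and 0.66 ± 0.11 (difference 0.80 ± 0.15). The MAF difference was not called when all probes of the gene were averaged. TSC22D3, which also answers to glucocorticoids, fell by 0.83 in C4-2B and rose by 0.43 ± 0.12 in LNCaP (difference −1.27 ± 0.17). Of 16 androgen-repressed genes 4 had a higher difference. TMEFF2 was one, CAMK2N1, a CaM kinase inhibitor, was at 1.04 ± 0.20, and the glucuronidation enzymes UGT2B10 and UGT2B11, which fell in LNCaP by 0.91 and 0.56, were at 1.33 ± 0.21 and 1.14 ± 0.18. Probes of these near-identical UGT2B genes may take each other's RNA. Of 25 luminal markers 3 were higher and 2 lower, CD24 at 0.72 ± 0.18 and the acid phosphatase ACP3 at 0.60 ± 0.13 among the higher. CD24 was called under 21 of 29 alternatives, not with the 12 arrays alone or with all probes of the gene averaged.

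Of 28 p53 targets, 1 had a higher and 4 a lower difference. The 4 included SESN2, already counted in the ATF4 list, TNFRSF10B, and GADD45A and GADD45B, growth arrest genes, at −1.30 ± 0.18 and −0.92 ± 0.22. Of 26 immediate early and heat shock genes, 3 had a higher and 1 a lower difference. The lower one was ATF3, an immediate early factor that is also a target of ATF4 and a member of that list. It had 8.23, 8.38 and 8.72 in C4-2B with EPZ6438 and 9.51, 9.54 and 9.32 with DMSO, and 9.29, 9.59 and 10.22 in LNCaP with EPZ6438 and 8.76, 9.26 and 9.09 with DMSO. It fell in C4-2B by 1.01 and rose in LNCaP by 0.66, a difference of −1.68 ± 0.26. The heat shock chaperone HSPH1 differed by 0.85 ± 0.16, HSP90AA1 by 0.47 ± 0.14 and DNAJB1 by 0.47 ± 0.14. HSP90AA1 was called under 12 and DNAJB1 under 9 of 29 alternatives, neither with the 12 arrays alone. Where 6.69% of all genes were called, 1 of 56 cytosolic ribosomal protein genes was, RPL29 (0.77 ± 0.20), and 1 of 16 HOX genes, HOXB5 (−0.74 ± 0.20). They were called under 21 and 16 of 29 alternatives, neither with the 12 arrays alone.

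No member of several lists was called for the difference at this precision. They were PRC1 (16 measured), oxidative phosphorylation (37), MHC class I (14), metallothioneins (9), ERK feedback (17), cancer-testis antigens (27), and markers of basal (5), neuroendocrine (6) and blood and immune cells (9). In these lists the largest absolute differences were for PCGF1 (−0.63 ± 0.24), COX7B (0.55 ± 0.21), ERAP2 (0.43 ± 0.50), MT1F (−0.46 ± 0.15), PHLDA1 (0.66 ± 0.36), PAGE1 (0.76 ± 0.43), LAMB3 (−0.57 ± 0.19), ENO2 (0.61 ± 0.28) and CD79A (0.48 ± 0.18). PAGE1 and PHLDA1 are among the genes that mark C4-2B, and LNCaP DMSO replicate 1 was their high array, at 7.53 against 5.22 and 5.71 for PAGE1.

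Opposite responses were called at 45 genes: 29 rose in C4-2B and fell in LNCaP, and 16 the reverse. Each was also called for the difference, which follows from called effects of opposite sign and is no separate support. ATXN1, a transcriptional cofactor, had 6.80, 6.73 and 6.68 in C4-2B with EPZ6438 and 7.84, 7.79 and 7.34 with DMSO, and 6.04, 6.37 and 6.42 in LNCaP with EPZ6438 and 5.88, 5.04 and 5.52 with DMSO. It fell by 0.92 in C4-2B and rose by 0.80 in LNCaP (difference −1.72 ± 0.22). IFRD1, a transcriptional coregulator, and TMEM140 also fell in C4-2B and rose in LNCaP (differences −1.47 ± 0.19 and −1.34 ± 0.17). TMEM140 is among the genes that mark LNCaP in siControl cultures. CERT1, which carries ceramide, rose in C4-2B and fell in LNCaP (1.27 ± 0.20). Of 265 genes that changed the same way in both lines, 30 were called for the difference.

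The DMSO starting levels lay opposite to the response. Genes with a higher difference had a median log2 level of 7.36 in C4-2B with EPZ6438 and 6.72 with DMSO, and 7.17 in LNCaP with EPZ6438 and 7.37 with DMSO. Genes with a lower difference had 7.05 and 7.66 in C4-2B and 7.34 and 7.10 in LNCaP. The median C4-2B minus LNCaP difference was thus −0.43 for the first set and 0.55 for the second in DMSO, and 0.28 and −0.19 with EPZ6438. The DMSO arrays enter both the starting level and the response, so these values are set side by side without a test.

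The siControl arrays, which share no array with the response, did not carry that pattern. In them the median C4-2B minus LNCaP difference was 0.12 for the genes with a higher difference and −0.20 for those with a lower one. Of the 447 higher genes, 192 were called higher in C4-2B siControl (43%, against 22.6% of all genes) and 113 lower (25.3%, against 24.3%). Of the 476 lower genes, 93 were called higher (19.5%) and 208 lower (43.7%). Put the other way, the 192 were 6.16% of all genes higher in C4-2B siControl, where 3.24% of all genes had a higher difference. The 208 were 6.2% of those lower, where 3.45% of all genes had a lower difference. Over all 13789 genes the correlation of the 2 quantities was weak (Pearson r = 0.10, Spearman rho = 0.13, across genes, which are not independent replicates).

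**Figure D5:**
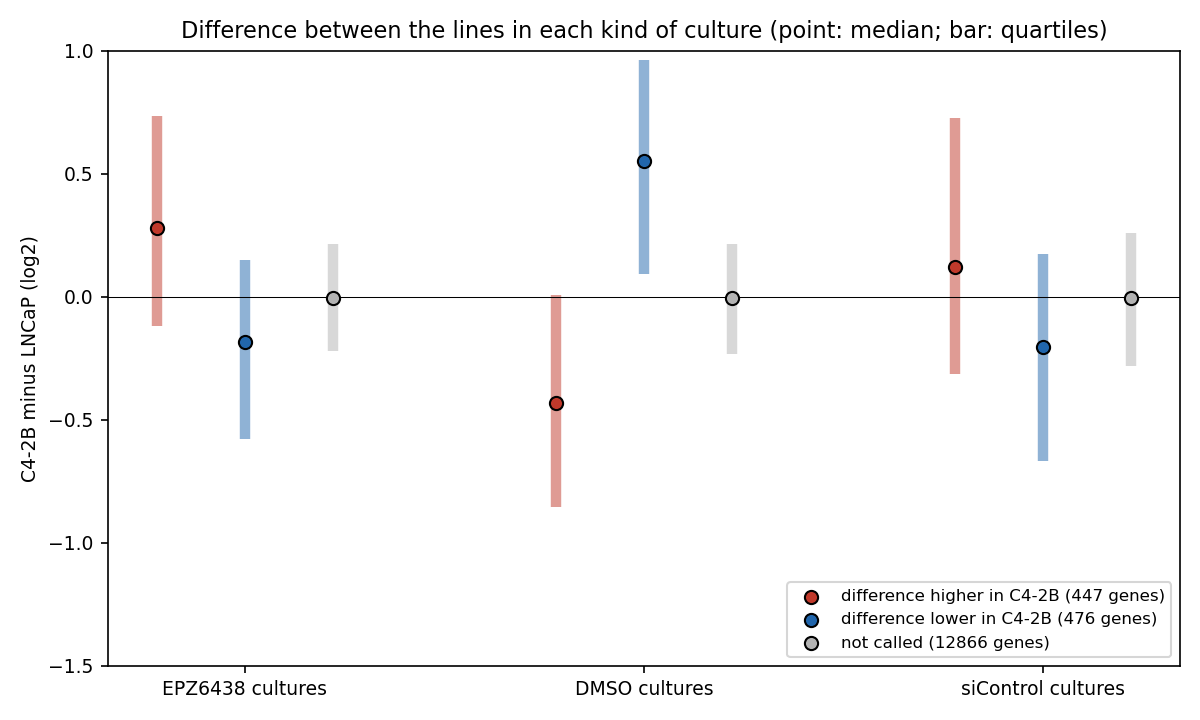
C4-2B minus LNCaP in log2 units for genes with a higher (red) or lower (blue) difference and the genes not called (grey), in EPZ6438, DMSO and siControl cultures; points are medians and bars quartiles. The red and blue medians have opposite signs in DMSO (−0.43 and 0.55) and in siControl cultures (0.12 and −0.20).

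Calls were fewest among genes with the lowest DMSO levels. In 5 classes of equal size by mean DMSO level, from low to high, 2.18%, 5.51%, 8.78%, 8.48% and 8.52% of genes were called. Of genes above background on all 3 C4-2B and no LNCaP DMSO arrays, 34 of 146 were called (23.3%), and of those above background on all 3 LNCaP and no C4-2B DMSO arrays 28 of 184 (15.2%), against 7.7% of the genes detected on all 6. The DMSO arrays that set these detection classes also enter the difference, so a larger share can come from that overlap, and the shares were not tested. Of the 923 genes, 26 were below background on all 6 C4-2B arrays, 25 of them with a lower difference, and 42 on all 6 LNCaP arrays, 28 of them with a higher one. For these the difference is the response of a single line.

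Depletion of EZH2 gave another picture at the same genes. With siEZH2 in C4-2B 57 of the 447 higher genes rose (12.8%, against 10.1% of all genes) and 91 fell (20.4%, against 8.5%), and 70 of the 476 lower genes rose (14.7%) and 52 fell (10.9%). In LNCaP 94 of the 447 rose with siEZH2 (21%, against 14.3%) and 72 fell (16.1%, against 12.5%), and 96 of the 476 rose (20.2%) and 82 fell (17.2%). Over all genes the difference of siEZH2 effects between the lines and that of EPZ6438 effects were nearly unrelated (Pearson r = −0.07, Spearman rho = −0.09, across genes). Among the replication genes 0 rose and 27 fell with siEZH2 in C4-2B, where EPZ6438 raised 11.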

How the data were processed

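Illumina HT-12 bead arrays measured total RNA of 24 samples in 8 groups. The deposited intensity per probe, not yet normalised, came with the authors' detection p-value; GenomeStudio is named in the submitters' processing notes. The deposited processed table served only as an alternative. Background was corrected from the detection p-values (normal-exponential model, offset 16), followed by quantile normalisation and log2; these log2 values were computed here from the deposited intensities.

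Probes with detection p under 0.05 on at least 3 arrays were kept (26278 of 47311), and the brightest stood for its gene. Called genes had 413 other kept probes, of which 84% gave a difference of the same sign. A means model of all 8 groups was fitted with limma 3.58.1 in R 4.3.3 (lmFit, eBayes; 16 residual degrees of freedom), with Benjamini-Hochberg adjustment over 13789 genes. Named genes were the 15 with the highest and the 15 with the lowest differences, up to 4 called members of each list by size (the largest where none was called), up to 10 called in opposite directions, and EZH2. Members and lists were chosen with earlier results of these data known. "At least" folds set the brighter group against the lowest detected signal. The number of arrays limits the precision. Alternatives covered scaling, background, filter, probe choice, arrays left out and replicate block. The procedure was tested on simulated data.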

Additional observations from a re-analysis of the deposited data

Results flagged for a closer look

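The effect of EPZ6438 differed between the lines by the limma interaction test at 923 genes. Of the 45 genes called in opposite directions in the lines, the 10 that ranked highest by the weaker of their 2 effects were CERT1 (1.27), MCM10 (1.37) and MCM4 (1.47), which rose in C4-2B and fell in LNCaP, and S100P (−2.40), CAPN5 (−2.05), ATXN1 (−1.72), ATF3 (−1.68), IFRD1 (−1.47), TMEM140 (−1.34) and FBXO32 (−1.25), which fell in C4-2B and rose in LNCaP. Others described that were called in opposite directions are KLK11, UHRF1, MSMO1, UGT2B11 and TSC22D3. Values are the C4-2B effect minus the LNCaP effect in log2 units.

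Probes with no gene assigned lay outside the comparison of genes. Of 7449 such probes above background, 166 were called for the difference (2.23%), 83 higher and 83 lower, against 1129 of all 26278 kept probes (4.3%). Their differences ran to 1.58 at the highest and −1.68 at the lowest.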

How the results depend on the processing

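Median centring of all probes gave 35 genes for the difference (15 higher, 20 lower), all among the 923, with a median SE of 0.310 against 0.175. It gave 265 for EPZ6438 in C4-2B (68.3% up, against 53.5%), 28 in LNCaP (92.9% up, against 60.1%), and 2195, 3312 and 1810 for C4-2B against LNCaP in DMSO (33.2% higher, against 49.9%), siControl and EPZ6438 cultures (38.6% higher, against 50.1%). Centring on detected probes gave 459 (192 higher, 267 lower), with 1257 in C4-2B and 355 in LNCaP. The 12 arrays alone gave 506 (237 higher, 269 lower), with 368 in LNCaP; fewer arrays estimate the spread there. Leaving out arrays gave 300 to 1210 (143 to 585 higher, 157 to 639 lower), 1018 to 2311 for EPZ6438 in C4-2B and 109 to 1783 in LNCaP, and 3911 to 5694, 5016 to 6673 and 3770 to 5309 for the lines in DMSO, siControl and EPZ6438 cultures. All 923 kept their sign in these fits, and 907 of the 923 did so in the authors' processed values. The fits and the processed values use the arrays on which the genes were called, so the kept signs are no separate support. Not called and of unstable sign were EZH2 (−0.151 without replicate 1 to 0.414 without replicate 3, −0.0627 without C4-2B EPZ6438 replicate 1, and −0.0818 without the 2 dimmest arrays, a setting chosen after seeing the data), PHLDA1 (−0.0279 without replicate 1 to 1.19 without replicate 3), PAGE1 (−0.0244 without replicate 1 to 1.23 without LNCaP DMSO replicate 2), and ERAP2 (−0.168 without the dimmest arrays). The causes were not tested.

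Deviations from the group mean correlated at r from −0.12 to 0.32 between same-numbered EPZ6438 and DMSO arrays of a line. Between differently numbered arrays r ran from −0.36 to 0.35. The numbers were not taken as pairs in the main fit, and whether they mark pairs was not tested. With a replicate block, 838 genes (number within line) or 958 (number over all groups) were called. Of the 95 named genes 85 were called, 27 of them under every alternative. For genes at background in a line, falls there cannot be measured.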
